A study of Serapias vomeracea and Serapias vomeracea
Tulasnella calospora with 6 samples.

Results

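A set of 22 assembled transcripts, called contigs, was barely read in orchid protocorms without a fungus and well read in protocorms with one. They were chosen by their read counts from the 205249 contigs counted in protocorms of Serapias vomeracea, a ground-dwelling orchid. Each is at least 500 bp long. Each had at least 10 reads but under 1 CPM (reads of a contig scaled to a common library size of 1000000 reads) in each of 3 asymbiotic libraries, and at least 10 CPM in each of 3 mycorrhizal libraries. The rule thus fixed the low level in one group, the high level in the other and the gap between them. The contrast between the groups is therefore a description of these contigs and no test of them.

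A protocorm is the small tuberous body that an orchid embryo forms before it has shoots or roots. Orchid seeds carry almost no reserves, and in nature the embryo is fed by a fungus whose hyphae form coils, called pelotons, inside the cells of the protocorm. The plant cell keeps a membrane around each coil, and nutrients pass across this boundary until the coil collapses and is digested. Plant genes that are silent or nearly so in uncolonised tissue and read in cells with fungus are the classic readout of such a symbiosis in other mycorrhizal plants.

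The mycorrhizal group came from seeds sown with Tulasnella calospora, a basidiomycete that lives with orchids, on oat medium. The asymbiotic group came from seeds germinated without a fungus on a modified BM1 medium. Both were collected at the stage labelled P2, without chlorophyll, after growth in darkness at 20 °C, and each group had 3 libraries that the labels call biological replicates. The age of the protocorms is not given in the labels used here, and effects of the growth medium, which was not the same in both groups, cannot be told apart from those of the fungus. Mycorrhizal tissue holds RNA of both partners, and its reads were placed on a reference that the design text says was assembled from asymbiotic reads. Whether a contig is of plant or fungal origin was not tested. In bulk tissue a change in the cells that read a gene and a change in RNA per cell cannot be told apart.

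Library totals ran from 87991285 to 109869317 reads in the asymbiotic and from 174635344 to 216364014 in the mycorrhizal group. Asymbiotic replicate 2 and mycorrhizal replicate 3 stood apart, with reads on 83622 and 51806 contigs against 108857 to 164346 in the other 4 libraries. In an asymbiotic library 10 reads equal 0.0910 to 0.114 CPM. Neither gene names nor sequences accompany the contig identifiers in the data used here, so no function is given for any contig. Contigs are called here by their length, which differs among the 22, and identifiers are given for 2 of them. Values per library follow the order of the replicates, 1 to 3.

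The asymbiotic limits removed most candidates. Of 64747 contigs of at least 500 bp, 8741 had 10 CPM or more in each mycorrhizal library. Among these, 68 stayed under 1 CPM in each asymbiotic library. A total of 22 of the 68 had at least 10 reads in each asymbiotic library, and 46 did not. Of the 46, 39 had no read in at least 1 asymbiotic library, in 38 cases in replicate 2. A single contig of the 68 had no read in any asymbiotic library. Seen from the other side, 5319 contigs of this length lay between 10 reads and 1 CPM in each asymbiotic library, and the 22 make up 0.414% of them.

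The limits cut through a continuous range of values. The 3 contigs nearest to 1 CPM from below reached 0.977, 0.965 and 0.956 CPM in their highest asymbiotic library. The 3 nearest from above, which met the other conditions, reached 1.03, 1.06 and 1.09 CPM. At the mycorrhizal limit, the lowest libraries of the nearest contigs inside stood at 10.6, 10.96 and 11.7 CPM and those of the nearest outside at 9.12, 8.97 and 8.35 CPM.

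Together the 22 contigs took 0.00148%, 0.00118% and 0.00102% of the reads without fungus, and 0.136%, 0.154% and 0.160% with fungus. The median contig stood at 0.826, 0.620 and 0.607 RPKM (CPM per kilobase of contig) without fungus. With fungus the median was 31.6, 36.3 and 56.4 RPKM. Ranked by RPKM among contigs of at least 500 bp, the median contig moved from a rank of 36446 to 39517 in the asymbiotic to one of 2086 to 3539 in the mycorrhizal libraries. Of the 22, 2 or 3 were among the top 1% of these contigs in a mycorrhizal library, and 0 of the 22 in an asymbiotic one.

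**Figure D1:**
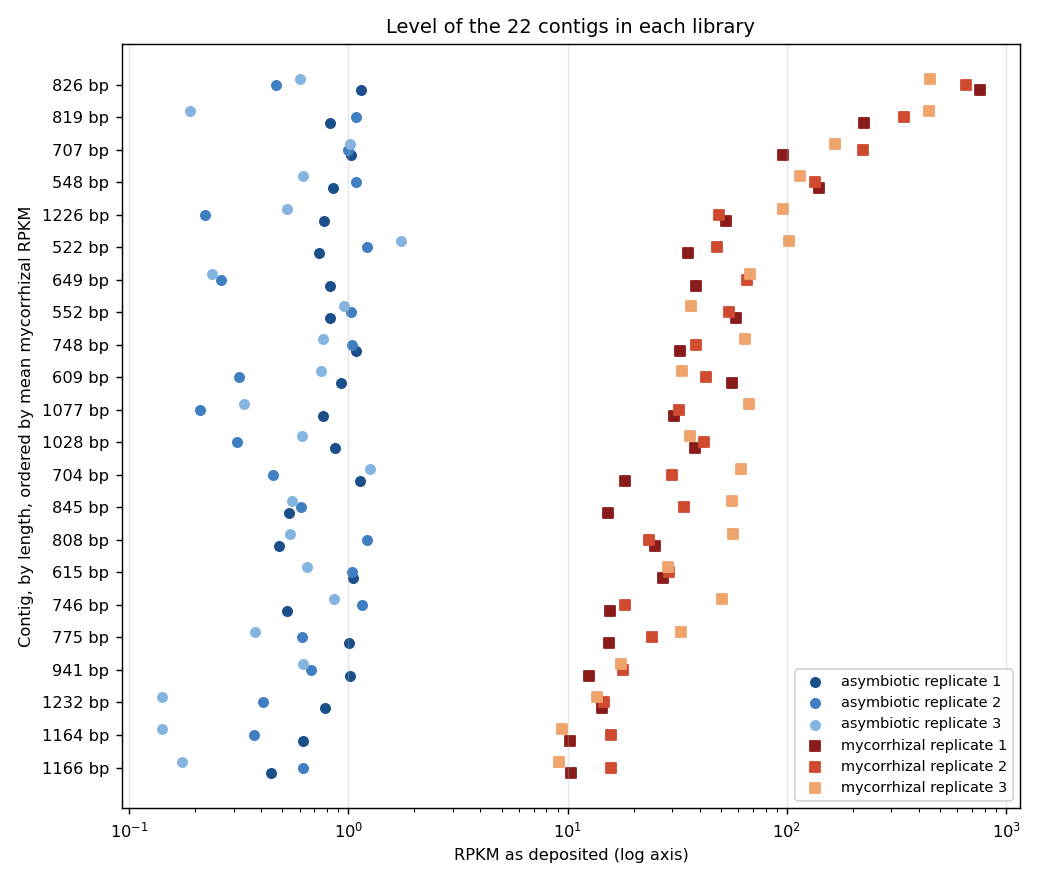
RPKM as deposited, on a log axis, of each of the 22 contigs (rows, by length) in 3 asymbiotic (blue circles) and 3 mycorrhizal libraries (red squares). Asymbiotic values lie between 0.142 and 1.73 RPKM and mycorrhizal ones between 9.13 and 757 RPKM, with a gap fixed by the rule.

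A few contigs dominated the group. The highest, TRINITY_DN65872_c0_g1_i3 of 826 bp, had 104, 34 and 51 reads without fungus. With fungus it had 135205, 107530 and 65101 reads, which is 757, 659 and 451 RPKM. It was highest in mycorrhizal replicate 1 and lowest in replicate 3, and its lowest mycorrhizal CPM was 394 times its highest asymbiotic one. Its mean rose from 0.609 ± 0.297 to 514 ± 129 CPM (SD, n = 3 each), a difference of 9.69 ± 0.54 on the log2 scale (SE; adjusted p = 5.9e-05 by edgeR). In the mycorrhizal libraries it ranked 54, 77 and 116 by RPKM among contigs of at least 500 bp. It alone made up 34.3% of the CPM of the 22 contigs over the mycorrhizal libraries.

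The next, TRINITY_DN68300_c0_g2_i1 of 819 bp, ran the other way among the mycorrhizal libraries. It had 74, 78 and 16 reads without fungus, and 39748, 55233 and 63466 with fungus. Its mycorrhizal level was thus highest in the library where that of the 826 bp contig was lowest, and the 2 were close there at 444 and 451 RPKM. On the log2 scale the groups were 8.84 ± 0.68 apart (SE; adjusted p = 0.000408 by edgeR). Reads unique to the contig made up 99.6% of its total, against 76.9% for the 826 bp contig. Together both held 52.6% of the CPM of the 22 contigs in the mycorrhizal group.

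A second tier was formed by contigs of 707 and 548 bp, at 162 ± 63.7 and 129 ± 13.5 RPKM in mycorrhizal protocorms (SD, n = 3 each). The 707 bp contig had an even trace level, with 80, 62 and 74 asymbiotic reads, which is 0.728, 0.705 and 0.719 CPM. Its mycorrhizal libraries were less even, at 67.6, 158 and 118 CPM, and its reads were 100% unique. The 548 bp contig was the steadier one with fungus, at 76.7, 73.4 and 62.6 CPM, and had 0.464, 0.591 and 0.340 CPM without it. Its reads were 64.8% unique, so its level also depends on how shared reads were assigned. The log2 fold changes of the 707 and 548 bp contigs were close, at 7.25 ± 0.46 and 7.22 ± 0.46 (SE, edgeR adjusted p = 0.000123 and 0.000137). The fifth by level, the 1226 bp contig, stood at 65.8 ± 26.2 RPKM (SD, n = 3). The 4 contigs with the most mycorrhizal CPM, of 826, 819, 707 and 1226 bp, held 65.6% of the CPM of the 22, and the other 18 shared 34.4%.

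Fold changes ran from 19.8-fold to 828-fold with a median of 48.7-fold. At least 32-fold was reached by 16 contigs and 64-fold by 8. By edgeR's quasi-likelihood test over 93242 contigs, 22 of the 22 had an adjusted p under 0.05 and were higher in mycorrhizal protocorms. Among all contigs tested, 0.655% were called higher, but the rule used this contrast and nothing is read from the comparison. The median log2 fold change was 5.60 among the 22 and -0.06 among all contigs tested.

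**Figure D2:**
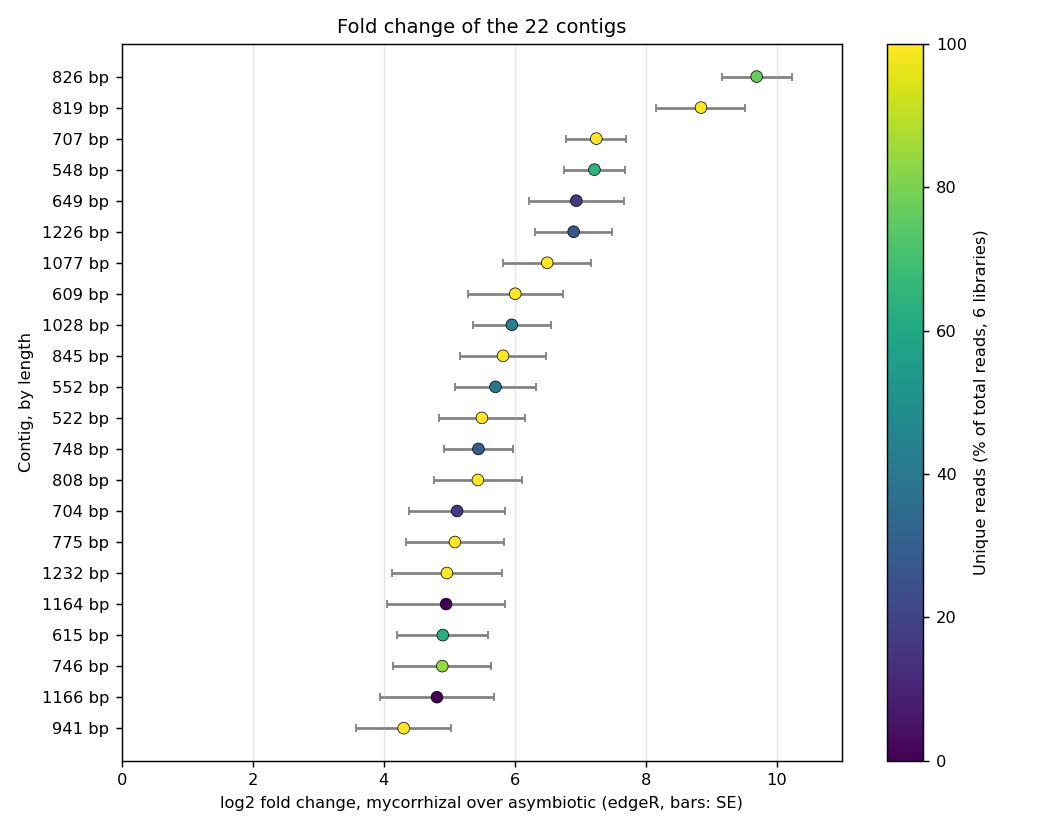
Log2 fold change of mycorrhizal over asymbiotic protocorms with its SE (edgeR, 3 libraries per group) for the 22 contigs, coloured by the unique share of their reads. Values run from 4.31 for the 941 bp contig to 9.69 for the 826 bp contig, both of the contigs named in the text by identifier lying above 8.

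After the leading 4 contigs, the largest changes were those of the 649 and 1226 bp contigs. The 649 bp contig had 59, 15 and 16 asymbiotic reads and 5398, 8453 and 7713 mycorrhizal reads, a log2 fold change of 6.94 (SE 0.72, adjusted p = 0.00207 by edgeR). It had the lowest mean without fungus, 0.288 ± 0.216 CPM (SD, n = 3). For the 1226 bp contig, 104, 24 and 66 reads without fungus stood against 13963, 11829 and 20565 with it. The shortest contig, of 522 bp, had 42, 56 and 93 reads without fungus and 3994, 4970 and 9301 with it, highest in replicate 3 of both groups.

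At the lower end, the 941 bp contig had 105, 56 and 60 asymbiotic and 2548, 3338 and 2870 mycorrhizal reads. Its log2 fold change of 4.31 ± 0.73 was the smallest of the 22 (SE, edgeR adjusted p = 0.0267), and its groups were still 12.3 times apart from the lowest mycorrhizal to the highest asymbiotic CPM. The next smallest were contigs of 1166, 746, 615 and 1164 bp, at 4.81 to 4.95. As a description of these calls, leaving out single libraries ended those of the 1166, 1164 and 941 bp contigs in 4 or 5 of 6 cases, with edgeR adjusted p of up to 0.234, 0.218 and 0.159.

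The calls depended on the tool and on single libraries. DESeq2 called 22 of the 22 higher, with 1.96% of all contigs called higher. Limma-voom called 0 of the 22, with adjusted p between 0.113 and 0.506, although 21 of them had an unadjusted limma-voom p under 0.05, and it called 0.089% of all contigs higher. With 1 library left out at a time, edgeR called 17 to 22 of the 22, fewest without asymbiotic replicate 2, and 17 contigs were called under each of the 6 omissions. Of all contigs, 0.627%, 0.343% and 0.513% were called higher when an asymbiotic library was the one omitted (first to last replicate), and 0.429%, 0.357% and 1.03% when it was a mycorrhizal one. Without both libraries that stood apart, asymbiotic replicate 2 and mycorrhizal replicate 3, edgeR called 6 of the 22 and 0.0818% of all contigs higher, with the 826 and 548 bp contigs among the 6 (edgeR adjusted p = 0.0375 each). The 819 bp contig was not called there (edgeR adjusted p = 0.0851), with a log2 fold change of 9.15. The median log2 fold change of the 22 in that fit was 5.54.

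The 22 contigs did not rise and fall together among the mycorrhizal libraries. Replicate 3 held the highest CPM for 11 of them, replicate 2 for 7 and replicate 1 for 4. With libraries scaled by TMM factors, the numbers were 10, 7 and 5. The ratio of the highest to the lowest mycorrhizal library was 1.06 to 3.66, with a median of 1.87, and the coefficient of variation was 3.34% to 68.9%, with a median of 31.5%.

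The most variable contig was that of 746 bp, at 11.7, 13.6 and 37.6 CPM with fungus. It was followed by the 704 bp contig at 12.9, 21.1 and 43.7 CPM and the 845 bp contig at 12.9, 28.8 and 47.4 CPM. In each of these 3, replicate 3 was the highest and replicate 1 the lowest library. The steadiest were the 615 bp contig at 16.7, 17.8 and 17.7 CPM, the 1232 bp contig at 17.7, 17.96 and 16.8 CPM and the 1028 bp contig at 39.2, 42.9 and 37.1 CPM. Across the 22 contigs, Pearson's r of log2 CPM was 0.95 between mycorrhizal replicates 1 and 2, 0.83 between 1 and 3 and 0.87 between 2 and 3. These correlations are a description across 22 contigs, which share the libraries.

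**Figure D3:**
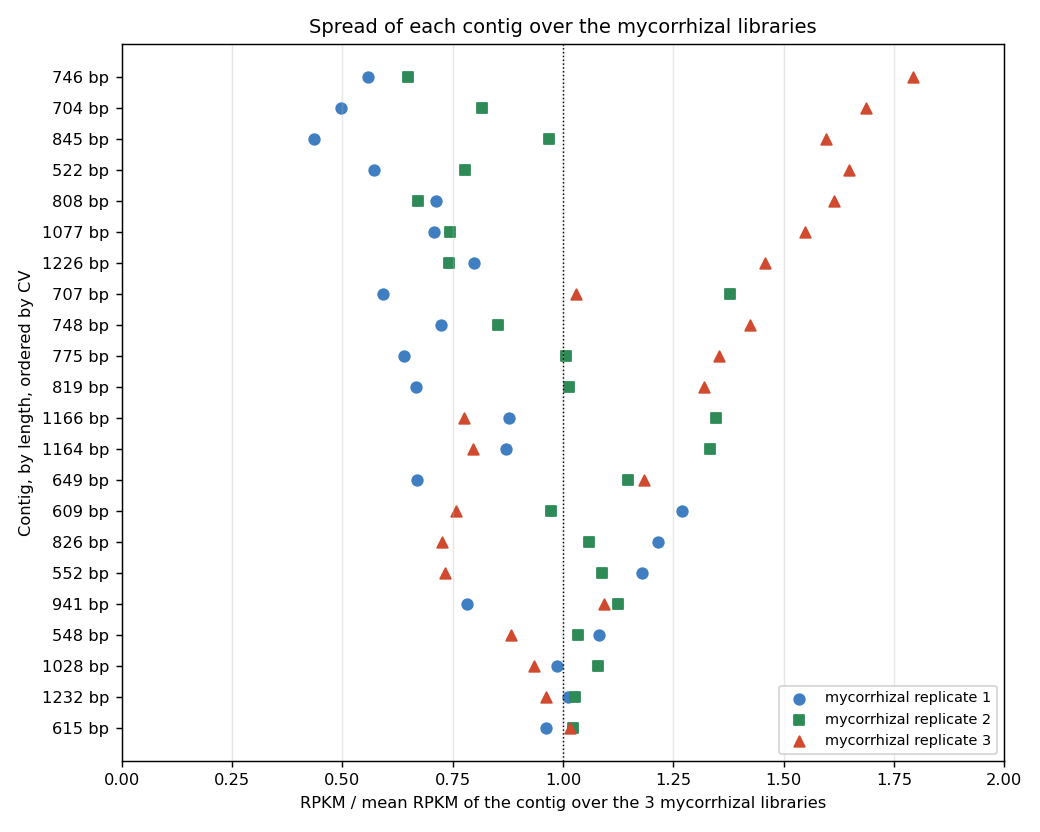
RPKM of each of the 22 contigs in the 3 mycorrhizal libraries, relative to the mean of the contig over these libraries (dotted line at 1), with contigs ordered by their coefficient of variation. Replicate 3 (triangles) is the highest library in 11 contigs, among them the 7 with the largest spread.

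The trace reads without fungus were few and uneven. A contig had between 15 and 106 reads in an asymbiotic library, with medians of 76.5, 47.5 and 47.5 in replicates 1 to 3. Asymbiotic replicate 1 held the highest CPM for 13 contigs, replicate 2 for 7 and replicate 3 for 2. With libraries scaled by TMM factors, the numbers were 12, 5 and 5. The ratio of the highest to the lowest asymbiotic library reached 5.71, in the 819 bp contig, and its median was 2.59. The coefficient of variation had a median of 47.0%, and was lowest in the 707, 845 and 552 bp contigs at 1.65%, 6.25% and 11.1%.

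The rule holds the trace levels in a narrow band, which limits any relation to the mycorrhizal levels. Pearson's r between the log2 mean CPM of the groups was 0.16 and Spearman's rho 0.12 (n = 22 contigs, which share libraries). Between asymbiotic libraries, r of log2 CPM across the contigs lay between -0.34 and 0.07. The asymbiotic mean equalled 0.119% to 4.82% of the mycorrhizal mean, with a median of 1.93%. The share was lowest in the 826 and 819 bp contigs, at 0.119% and 0.207%, and highest in the 941 bp contig.

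Some of the reads could not be placed on a single contig. Unique reads made up 100% of the total in 8 of the 22 contigs and at least 99% in 10. A further 4 contigs had 50 to 99% unique reads, 6 had less than 50% and 2 had none. The lowest shares above 0 were 15.7% in the 649 bp contig, 16.5% in the 704 bp contig and 26.8% in the 1226 bp contig. The sources used here do not give how the other reads were shared out among contigs, and the levels of these contigs depend on it.

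The pooled unique share of the 22 contigs was 73.1%, 75.6% and 74.8% without fungus and 71.9%, 76.2% and 80.3% with fungus. The groups overlapped, at 74.5 ± 1.27% and 76.1 ± 4.19% (SD over 3 libraries each). An exact permutation test, two-sided, gave p = 0.6, or 0.6 after adjustment over 2 such tests, where 0.1 is the smallest p possible. Taken as the median over the contigs, the share was lower in the mycorrhizal libraries, by 14.1 points. These medians were 99.5%, 100% and 90.2% without fungus and 80.4%, 83.4% and 83.5% with fungus. The groups did not overlap in them (exact permutation test, unadjusted p = 0.1, the smallest possible). At least 1 unique read in every asymbiotic library was found for 16 of the 22. Scaled by total library size, unique reads alone met each limit of the rule in 13 contigs. In an edgeR fit on unique reads 20 of the 22 could be tested, and 19 of these were called higher, with 1.66% of all contigs called higher. The exception was the 704 bp contig (log2 fold change 4.33, edgeR adjusted p = 0.566). The 704 bp contig had no unique read in asymbiotic replicate 2, as was so for the called contigs of 649, 748 and 1028 bp. Why the call of the 704 bp contig was lost was not tested.

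The assembler Trinity groups contigs that share sequence into a gene and calls them its isoforms. The 22 contigs fell into 21 such genes out of 159127. In 13 of the genes the contig was the sole one assembled, and the other 8 genes held 9 of the 22 contigs and 14 more, called sister contigs here. The sister contigs were put to the same rule and did not meet it, and they can share reads with the 22.

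Of the 14 sister contigs, 7 were higher in every mycorrhizal than in every asymbiotic library. These 7 were among the 10 with enough reads for the edgeR test. Of all contigs so tested, 8.2% had groups apart in this way. The summed share of the reads of the 14 was 0.000968%, 0.000915% and 0.000898% without fungus and 0.0375%, 0.0287% and 0.0447% with fungus. The groups did not overlap in this summed share. An exact permutation test, two-sided, gave p = 0.1, the smallest possible with 3 against 3, or 0.2 adjusted over the same 2 tests. In mycorrhizal replicate 1, the 375 and 1172 bp sister contigs held 36195 and 25754 of the 81105 sister reads. Unique reads made up 28.2% and 27.5% of their totals, and the 1255 and 1257 bp sister contigs had none. The test is thus not independent of the rule, which chose contigs that can share these reads. On unique reads the groups differed by 0.0202 points, against 0.0360 points on total reads. Of 10 sister contigs tested by edgeR, 2 were called higher and 0 lower, with 0.655% and 0.249% of all contigs called in these directions. DESeq2 called 6 higher and 0 lower, against 1.96% and 2.33% of all contigs, and limma-voom 0 in either direction, against 0.089% and 0.159%. At an unadjusted edgeR p under 0.05 there were 6 higher and 0 lower, against 4.12% and 4.23% of all contigs. Their median log2 fold change was 4.02, and 8 of the 10 were positive. The sister contigs of 410, 474, 487 and 722 bp had too few reads to be tested.

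The 2 called sister contigs were those of 1253 and 1679 bp. The 1253 bp contig, in the gene of the 746 bp contig, had 0.501, 1.18 and 1.06 CPM without fungus and 20.3, 35.9 and 34.9 CPM with it. It rose from 0.914 ± 0.363 to 30.4 ± 8.76 CPM (SD, n = 3 each; log2 fold change 4.97 ± 0.61 SE, edgeR adjusted p = 0.00531). The 1679 bp contig, in the gene of the 615 bp contig, had 4.87, 1.80 and 4.22 CPM without fungus and 35.8, 27.0 and 46.2 CPM with it. The groups of both were well apart. The 1679 bp contig rose from 3.63 ± 1.62 to 36.4 ± 9.65 CPM (SD, n = 3 each; log2 fold change 3.22 ± 0.53 SE, edgeR adjusted p = 0.0235). The 375 and 1172 bp sister contigs had larger log2 fold changes, 8.63 and 8.91, without passing the test (edgeR adjusted p = 0.0925 and 0.0804). Both had no read in asymbiotic replicate 2, where a count of 0 allows up to 0.0341 CPM by counting error alone.

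**Figure D4:**
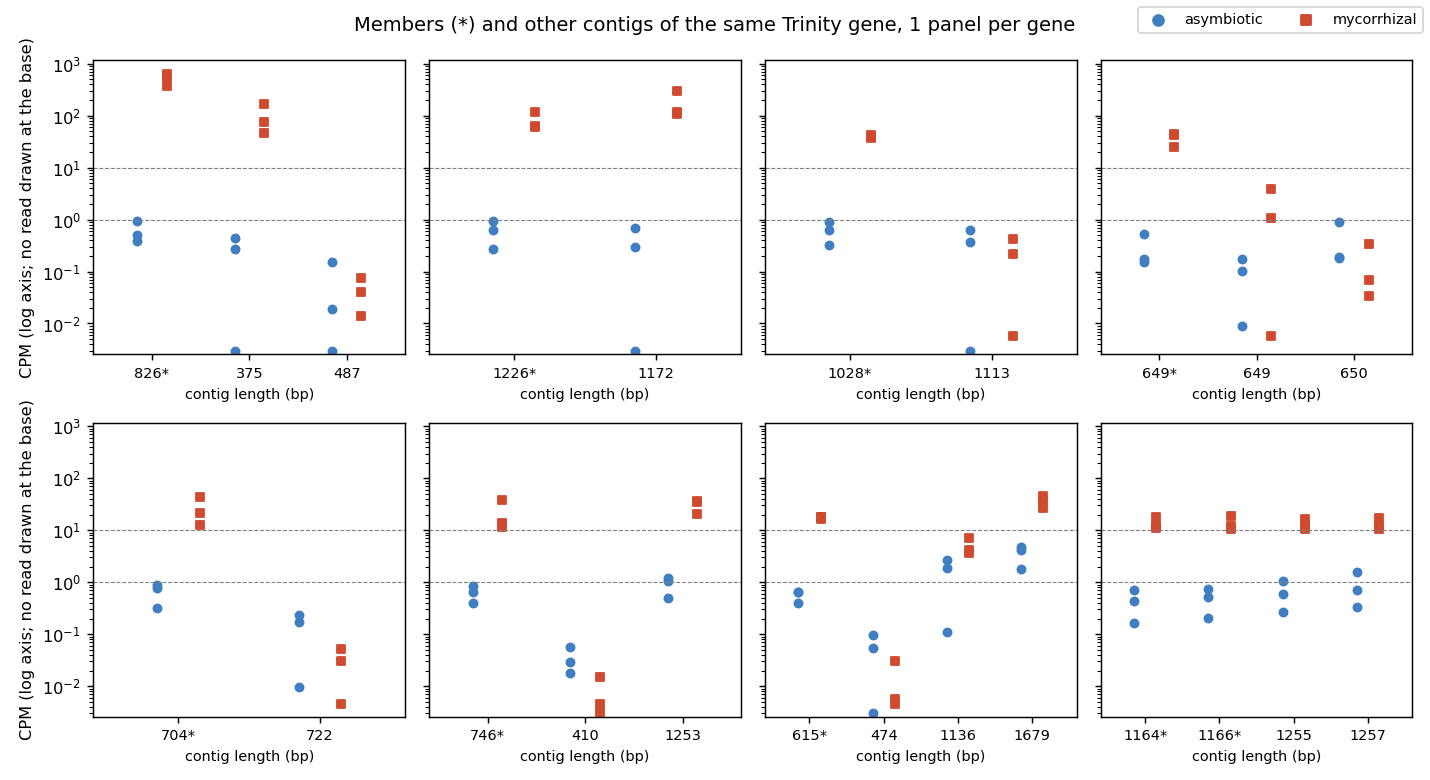
CPM on a log axis of the contigs of the 8 Trinity genes with more than 1 contig, 1 panel per gene, in 3 asymbiotic (blue circles) and 3 mycorrhizal libraries (red squares), with contigs of the 22 marked by an asterisk and dashed lines at 1 and 10 CPM. In the gene of the 1028 bp contig the sister of 1113 bp stays under 1 CPM in both groups, while in the gene of the 1226 bp contig the sister of 1172 bp moves from at most 0.674 CPM to at least 107 CPM.

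Within a gene, by total reads, the contig of the 22 was in some cases the form read with fungus and in others 1 of several. In the gene of the 649 bp contig it held 37.3%, 37.5% and 29.6% of the reads of the gene without fungus and 86.5%, 96.8% and 99.9% with fungus. Its sister of 650 bp had 98, 16 and 20 reads without fungus and 15, 66 and 6 with it, with overlapping groups and no call (log2 fold change -1.50 ± 2.04 SE, edgeR adjusted p = 1.00). The 704 and 1028 bp contigs held 99.9% and 99.5% of the mycorrhizal reads of their genes on average. The 1226 bp contig instead held 75.7 ± 21.6% of its gene without fungus and 33.2 ± 4.05% with it (SD, n = 3 each). These shares contain the reads used by the rule and are given without a test. In the 649, 704, 1028 and 1226 bp contigs, unique reads made up 15.7%, 16.5%, 41.8% and 26.8% of the total. The shares within these genes thus also depend on how shared reads were assigned.

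The gene of the 1166 and 1164 bp contigs was the only one with more than 1 of the 22. Its 4 contigs, the others being 1255 and 1257 bp long, had no unique read in any library. For the contigs of 1166, 1164, 1255 and 1257 bp, the counts were 2601, 2591, 2591 and 2582 reads in mycorrhizal replicate 1. In replicate 2 they were 3646, 3627, 3308 and 3405 reads, and in replicate 3 they were 1859, 1914, 1843 and 1868. The split among the 4 thus rests on how shared reads were assigned, and the sum is the firmer value. Summed, the gene stood at 2.55, 3.76 and 0.971 CPM without fungus and 47.9, 70.8 and 42.9 CPM with it. The 1255 bp contig was the nearest to the rule from outside, at 1.03 CPM in asymbiotic replicate 2.

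Summed over their contigs, 14 of the 21 genes were under 1 CPM in each asymbiotic library. The other 7 reached 1 CPM in at least 1 of these libraries, and 1 of them in all. That gene, of the 615 bp contig, stood at 5.68, 5.06 and 6.56 CPM without fungus and 56.8, 52.0 and 67.6 CPM with it. By total reads the trace level there was thus that of the contig and not of the gene. The log2 fold change was 3.19 ± 0.39 for this gene and 4.90 ± 0.69 for its 615 bp contig (SE). Unique reads made up 62.7% of the total in the 615 bp contig. In its sister contigs of 1679 and 1136 bp they made up 30.7% and 27.5%. The split within this gene thus also depends on how shared reads were assigned. On sums per Trinity gene edgeR called 21 of the 21 higher, with 2.55% of the 57152 genes tested called higher. The sums contain the reads used by the rule, so this count is a description and nothing is read from the comparison. Limma-voom called 1 of the 21 on these sums, with 0.406% of all genes called higher.

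Trinity identifiers also name a wider cluster, and 23 contigs of other genes lay in the clusters of the 22. Of 16 of them tested, edgeR called 2 higher and 0 lower, with 0.655% and 0.249% of all contigs called in these directions. DESeq2 called 7 and 0, with 1.96% and 2.33% of all contigs. An unadjusted edgeR p under 0.05 was found for 7 and 0, and for 4.12% and 4.23% of all contigs. Their median log2 fold change was 4.21. The called ones were 465 and 2522 bp long. A contig of 891 bp in the cluster of the 548 bp contig, singled out after its values were seen, stood at 2.01, 0 and 1.06 CPM without and 1201, 1107 and 1313 CPM with fungus. It had no read in asymbiotic replicate 2 and was not called (log2 fold change 10.12 ± 1.90 SE, edgeR adjusted p = 0.105). Contigs of a cluster may share reads with the 22, so these counts are not taken as independent of the rule. The 548, 552 and 748 bp contigs, each sole in its gene, had 64.8%, 39.6% and 29.4% unique reads. Which contigs shared their other reads is not known.

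Contigs with the same length limit and mycorrhizal limit but more reads without fungus served as a frame. A total of 501 lay at 1 to 10 CPM in each asymbiotic library and 6852 at 10 CPM or more. The 22 contigs were short, with a median of 792 bp against 1225 and 1652 bp, and none exceeded 1232 bp. Their median mycorrhizal level of 40.9 RPKM compared with 19.0 and 28.2 RPKM. A sole contig in its gene was found for 59.1% of the 22, 33.5% of the 501 and 26.5% of the 6852. The median unique share was 80.6%, 52.2% and 38.3%. No test was made of these differences, and nothing is called particular to the 22.

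Over the mycorrhizal libraries the 3 sets had median coefficients of variation of 31.5%, 33.1% and 29.9%. Mycorrhizal replicate 3 was the highest library for 11 of the 22, 46.1% of the 501 and 46.5% of the 6852. Over the asymbiotic libraries the medians were 47.0%, 31.7% and 15.4%, highest in the set with the fewest reads. The reverse pattern, at least 10 CPM in each asymbiotic library and at least 10 reads but under 1 CPM in each mycorrhizal library, was found for 5 contigs of at least 500 bp. These were 2383 bp long in the median with a median unique share of 4.12%. The number of reads asked for equals a lower CPM in the deeper mycorrhizal libraries, 0.0462 to 0.0573, so the counts of 22 and 5 rest on unequal limits.

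**Figure D5:**
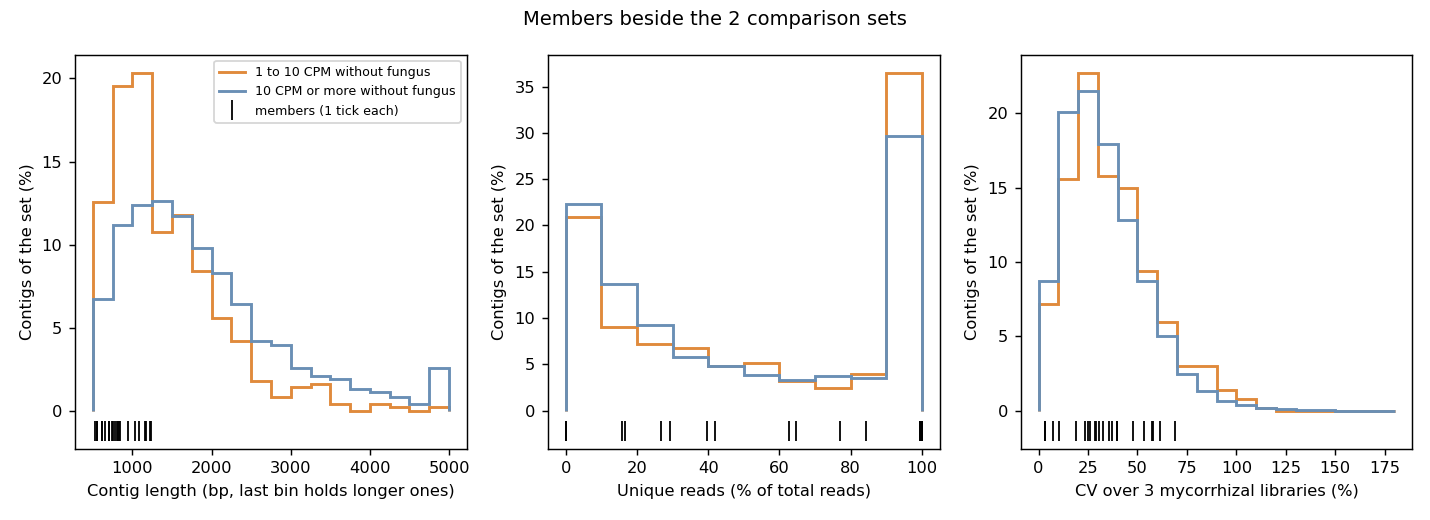
Length, unique share of reads and coefficient of variation over the 3 mycorrhizal libraries for 501 contigs at 1 to 10 CPM and 6852 at 10 CPM or more without fungus (outlines, percent of each set), with 1 tick for each of the 22 contigs. The ticks lie between 522 and 1232 bp, from 0 to 100% unique reads and between 3.34% and 68.9% variation.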

How the data were processed

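RNA of 3 asymbiotic and 3 mycorrhizal protocorm samples was extracted with a CTAB buffer, per the labels' protocols. Reads of 150 bp were aligned to a Trinity assembly, per the series design text. The sources used here do not name the aligner, the counter or any version. For each library the authors deposited unique and total read counts per contig, which are whole and not normalized, and RPKM values, per the file headers. RPKM gave the same length in each library, within 0.00338 bp of a whole number. CPM was computed here from total reads.

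Total reads were tested with edgeR 4.0.16 (quasi-likelihood, robust, filterByExpr, TMM factors 0.923 to 1.22, R 4.3.3), with Benjamini-Hochberg adjustment over 93242 contigs at 0.05. Standard errors were obtained from the log2 fold change and its F statistic. DESeq2 1.42.0 and limma-voom (limma 3.58.1) were alternatives. Single values per library were compared by exact permutation. The fits were also run on simulated counts of a smaller dispersion than that of these data (common dispersion 2.06 by edgeR). That run therefore does not show how the fits perform here. Floors of 3 reads cover counting error alone.

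The contigs and lists were chosen with earlier results of these data known. Named in full are the 2 of the 22 with the largest fold change. The others described are those highest by RPKM, with extreme fold changes, variation or unique shares, or nearest the limits. The steadiest contigs without fungus and the sister contigs described were chosen after their values were seen. Lists of gene functions could not be applied without gene names.

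Replicates differed by a chi-square per degree of freedom of at least 93.0, so none was counted as a copy. P-values of the fits weigh the difference between the groups against the modelled spread between these samples. Those of the permutation tests rank the observed difference among regroupings of the same samples.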

Additional observations from a re-analysis of the deposited data

How the results depend on the processing

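Under 15 alternatives, 328 log2 fold changes of the 22 contigs could be fitted and 0 reversed; they ran from 4.08 to 10.15. The call held in 269 and was lost in 59, of which 22 under limma-voom. The rule separates the groups, so leaving out a library could not turn a direction. Of the 22, limma-voom called 0, the fit without asymbiotic replicate 2 and mycorrhizal replicate 3 together (chosen after seeing the data) gave 6, and single omissions 17 to 22. Over all contigs, 611 were called higher and 232 lower. Without a filter on low counts the numbers were 1617 and 841, with DESeq2 1831 and 2176, with limma-voom 83 and 148, on unique reads 1119 and 613 and without both libraries 96 and 16. Single omissions gave 381 to 1176 higher and 100 to 721 lower. Of the sister contigs, 4 were called higher without a filter, 6 with DESeq2, 0 with limma-voom, 1 without both libraries and 1 to 4 under single omissions. The 21 genes had 1 call with limma-voom and 19 to 21 under single omissions. The difference in pooled unique share, 1.62 points, became -14.1 as a median over contigs, and ran from -0.465 (without mycorrhizal replicate 3) to 3.73 under single omissions. The sister contigs' share differed by 0.0360 points between the groups, and by 0.0322 to 0.0402 points under single omissions. The difference fell to 0.0265 points for sister contigs of at least 500 bp and to 0.0202 points on unique reads. The cause of these shifts was not tested. The choice of scaling moved the median log2 fold change of all contigs from -0.06 to -0.11 (RLE) and -0.23 (upper quartile), and 22 of the 22 were called under both. The samples share replicate numbers but deviations of same-numbered samples correlated at 0.04, -0.04 and -0.05. Those of other pairs ran from -0.06 to 0.06, so no pairing by number showed in these values. Whether same-numbered samples were handled together was not tested. With a replicate block 20 of the 22 were called, and 620 contigs higher and 259 lower in all. The trace values rest on 15 to 106 reads per asymbiotic library, which limits their precision, and they varied between these libraries by a median coefficient of variation of 47.0%.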
